A study of Mus musculus with 36 samples.

Results

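H3K36me2, dimethylation of lysine 36 of histone H3, was compared between neurospheres and hippocampus of control (Ctrl) mice by chromatin immunoprecipitation sequencing (ChIP-seq). The 4 libraries were chosen by their labels as the Ctrl H3K36me2 samples, 2 from P0 neurospheres and 2 from P0 hippocampus, out of 36 samples in the series, of which 24 had a file of islands. The series was made to study KDM2B, and it also holds conditional knockout (cKO) samples of genotype Kdm2bEmx1-delta-CxxC, the marks H3K27me3 and H2AK119ub1, and inputs. Ctrl mice carried the floxed allele (Kdm2bfl/+ or Kdm2bfl/fl). Both sources were taken from mice at postnatal day 0, and both were precipitated with the same H3K36me2 antibody. Neurospheres were sequenced only after further generations in culture, so time in culture cannot be told apart from source. Neurospheres were hippocampal neural progenitor cells grown as floating cultures with FGF2 and EGF, whereas the hippocampus libraries came from the tissue, a mixture of progenitors, newborn neurons, glia, vessels and other cells. The hippocampal mark is therefore an average over cell types, and fewer cells with the mark cannot be told apart from less mark per cell. Nothing in the labels says that replicates came from separate animals or cultures, so the spread between them may be technical.

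H3K36me2 is placed by the methyltransferases NSD1, NSD2, NSD3 and ASH1L and removed by demethylases such as KDM2A and KDM2B. It lies as broad domains over intergenic DNA and gene bodies, where it is bound by the DNA methyltransferase DNMT3A, and it hinders the action of PRC2, the complex that places H3K27me3. Active CpG-rich promoters usually lack it.

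The unit of measurement was the island, a run of 200 bp windows in which SICER found more reads than in input DNA. Reads are listed for islands alone, so a gene without an island had an unknown count and not a count of 0. Gene bodies were those of 20807 autosomal protein-coding genes of mm10, and a gene body or merged region counted as marked in a library when an island overlapped it by at least 1 bp. A gene body was neurosphere-only when both neurosphere libraries and neither hippocampus library had an island in it, hippocampus-only in the reverse case, and shared when all 4 libraries had one. Because these classes are set by the islands, they are given as a description with no test.

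The following 300-base stretches are shown as 1 example of the DNA behind each class: each is the centre of DNA that every library defining its class covered, in the first-ranked intergenic region of each class and the first-ranked gene body of each source-only class. They are read from the RefSeq GRCm38.p6 assembly (mm10), plus strand, and capitals mark CpG dinucleotides. The neurosphere-only intergenic stretch (chr17:27226351-27226650) lies outside any annotated gene. The Crb2 stretch (chr2:37787551-37787850) includes coding exon sequence. The hippocampus-only intergenic stretch (chr3:130851351-130851650) lies in an intron of the long noncoding RNA gene 2010110G14Rik. The Cmtm2a stretch (chr8:104291451-104291750) overlaps no exon, in a part that the gene Gm45711 also spans, and the shared stretch (chr14:24991151-24991450) is in no annotated gene.
Neurosphere-only intergenic: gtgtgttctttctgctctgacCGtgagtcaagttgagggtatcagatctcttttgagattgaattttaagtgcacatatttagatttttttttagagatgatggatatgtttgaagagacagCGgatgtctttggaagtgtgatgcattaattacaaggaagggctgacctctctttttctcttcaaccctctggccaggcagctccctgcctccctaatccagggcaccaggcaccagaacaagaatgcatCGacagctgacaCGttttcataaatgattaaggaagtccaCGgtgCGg
Crb2 gene body: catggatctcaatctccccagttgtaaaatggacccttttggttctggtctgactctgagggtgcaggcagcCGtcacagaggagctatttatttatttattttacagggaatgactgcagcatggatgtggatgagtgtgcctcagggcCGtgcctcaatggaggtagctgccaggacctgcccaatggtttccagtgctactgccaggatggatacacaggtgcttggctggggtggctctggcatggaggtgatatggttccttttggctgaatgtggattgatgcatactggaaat
Hippocampus-only intergenic: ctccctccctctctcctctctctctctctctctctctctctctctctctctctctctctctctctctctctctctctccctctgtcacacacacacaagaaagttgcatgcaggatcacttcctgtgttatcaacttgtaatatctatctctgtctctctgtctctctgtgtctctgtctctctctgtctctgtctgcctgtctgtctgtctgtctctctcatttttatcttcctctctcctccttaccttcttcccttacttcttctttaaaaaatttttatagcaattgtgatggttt
Cmtm2a gene body: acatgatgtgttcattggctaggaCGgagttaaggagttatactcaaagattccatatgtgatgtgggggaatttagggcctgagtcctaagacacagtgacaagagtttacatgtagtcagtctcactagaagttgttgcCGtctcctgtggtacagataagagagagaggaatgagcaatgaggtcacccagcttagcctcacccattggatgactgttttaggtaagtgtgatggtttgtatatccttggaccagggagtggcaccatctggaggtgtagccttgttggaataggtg
Shared intergenic: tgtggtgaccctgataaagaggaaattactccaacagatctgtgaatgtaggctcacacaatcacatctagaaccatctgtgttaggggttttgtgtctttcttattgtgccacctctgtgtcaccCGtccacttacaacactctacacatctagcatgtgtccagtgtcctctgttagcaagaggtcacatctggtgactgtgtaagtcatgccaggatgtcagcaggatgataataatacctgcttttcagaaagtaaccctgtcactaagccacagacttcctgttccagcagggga
The neurosphere-only intergenic stretch holds 6 CpGs, that of Crb2 2, that of Cmtm2a 2 and the shared stretch 1. The hippocampus-only intergenic stretch holds 0 CpGs, and 85.7% of its bases are repeat-masked, mostly as a pyrimidine-rich simple repeat, where reads can be hard to place.

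Neurospheres carried H3K36me2 over a much longer part of the genome than the hippocampus. Islands numbered 107292 and 109719 in neurosphere replicates 1 and 2, and 48300 and 40677 in hippocampus replicates 1 and 2. They covered 370.0 and 431.1 Mb against 160.9 and 114.5 Mb of the autosomes. Both neurosphere libraries exceeded both hippocampus libraries, with means of 401 ± 43.2 Mb and 138 ± 32.8 Mb (SD, n = 2), a 2.91-fold difference. A two-sided exact permutation test gave p = 0.333, the smallest that 2 libraries against 2 allow. Islands were also denser in neurospheres, at 55.5 and 45.9 against 27.9 and 27.1 counts per kb, and the widest spanned 186.2 and 140.2 kb against 26.2 and 19 kb. The islands held 20518511 and 19788367 counts in neurospheres against 4492862 and 3106793 in hippocampus. Counts in islands are not the sequencing depth, and the hippocampus H3K36me2 libraries had inputs of their own, so source, depth and input cannot be told apart in covered length.

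**Figure D1:**
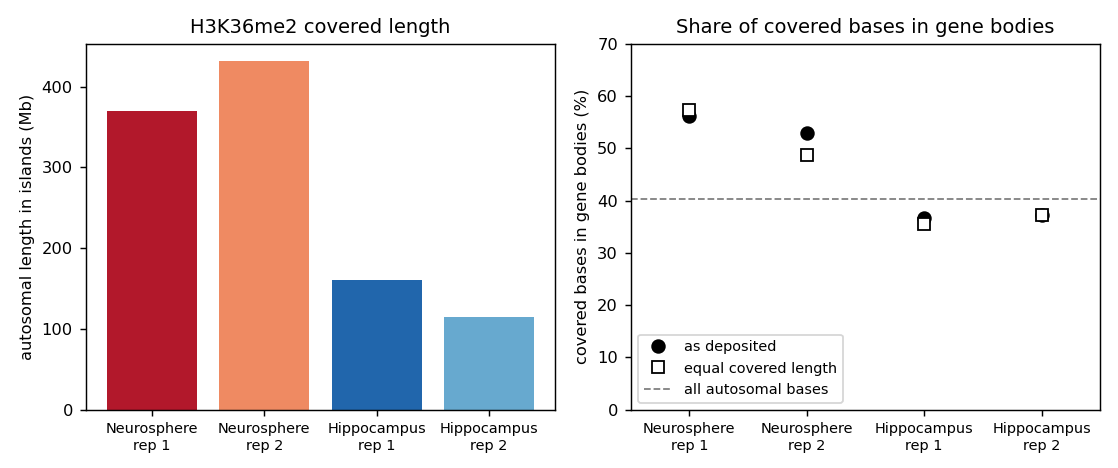
Left, autosomal length inside H3K36me2 islands (Mb) in each of the 4 Ctrl libraries, as bars from 0. Right, percent of covered bases that lay in protein-coding gene bodies in each library, with islands as deposited (filled circles) and cut to equal covered length (open squares), beside 40.3% for all autosomal bases (dashed line). Both neurosphere libraries lie above the dashed line and both hippocampus libraries below it in either setting.

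The mark was also placed differently. In neurospheres 56.3% and 53.0% of covered bases lay in gene bodies, against 36.7% and 37.3% in hippocampus, while gene bodies make up 40.3% of the autosomes. Neurosphere H3K36me2 was thus weighted towards genes and hippocampal H3K36me2 slightly towards intergenic DNA, a difference of 17.6 percentage points (exact permutation p = 0.333, the smallest possible). Since covered length differed, the islands of each library were also cut, densest in counts per kb first, to the 114.5 Mb of the library with the least. The gene-body shares were then 57.3% and 48.7% against 35.5% and 37.3%, so the sources stayed apart. The cut kept narrower islands in neurospheres than in hippocampus, with a mean over libraries of the median width of 1.2 kb against 2.7 kb. It also set a higher density limit in neurospheres. The least dense islands kept had 60.2 and 50.4 counts per kb there, against 25.6 and 15 in hippocampus. A neurosphere island lost in the cut could therefore be denser than a hippocampus island that stayed.

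Within gene bodies of at least 10 kb the start of the gene body held a similar share of the mark in both sources. The first of 4 equal parts of the gene body held 25.003% and 25.8% of gene-body coverage in neurospheres and 24.6% and 24.8% in hippocampus, and the difference of 0.66 percentage points (exact permutation p = 0.333) shrank to 0.51 (p = 0.667) at equal covered length. It was 0.28 without neurosphere replicate 2 and 1.04 without neurosphere replicate 1. Coverage was not flat: with the gene body cut into 10 parts, neurosphere replicate 2 went from 21.5% in the first to 26.3% in the second and 21.7% in the last, and hippocampus replicate 1 from 5.04% in the first to 6.70% in the fourth and 4.80% in the last. Start sites were depleted in both sources. In the first kb downstream of the start site, islands covered 10.9% and 7.89% of bases in neurospheres, against 17.1% and 16.1% at 19 to 20 kb downstream. The hippocampus had 1.62% and 1.15% in the first kb against 3.698% and 2.85% further in. Promoter bases, taken as 2 kb on each side of the start site, were covered over 10.8% and 9.15% in neurospheres and 1.90% and 1.39% in hippocampus. With equal length these shares were 3.83% and 2.25% against 1.42% and 1.39%, and neurosphere replicate 1 was lowest between 2 and 1 kb upstream, at 3.53%, rather than in the first kb downstream, at 4.15%.

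**Figure D2:**
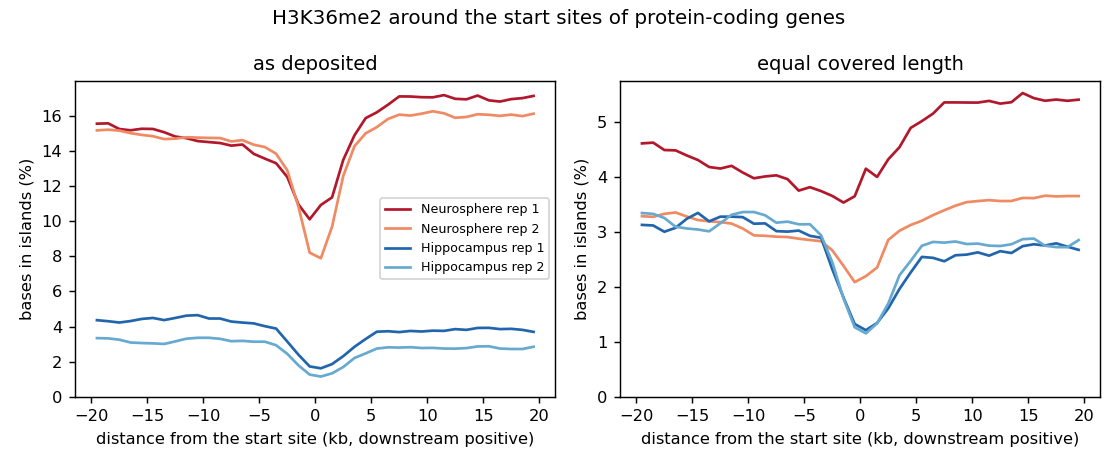
Percent of bases inside H3K36me2 islands (y axis) in steps of 1 kb from 20 kb upstream to 20 kb downstream of the start sites of autosomal protein-coding genes (x axis, kb), 1 line per Ctrl library, with islands as deposited (left) and cut to equal covered length (right). As deposited, all 4 lines dip near the start site, with 7.89% in the first kb downstream in neurosphere replicate 2 and 1.15% in hippocampus replicate 2; at equal length the dip of neurosphere replicate 1 is shallow, at 3.53%.

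Base composition followed the same split. Covered bases had 47.4% and 46.2% GC and 12.6 and 11.1 CpG per kb in neurospheres, against 44.7% and 44.8% GC and 8.93 CpG per kb in both hippocampus libraries. The autosomes as a whole hold 41.9% GC and 8.51 CpG per kb. Repeat-masked sequence made up 25.6% and 26.7% of covered bases in neurospheres and 27.9% and 28.9% in hippocampus, below the 33.5% of the autosomes.

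Reproducibility differed between the sources, and this bears on every count that follows. The Jaccard index, bases covered in both libraries over bases covered in either, was 0.517 for the neurosphere pair but 0.136 for the hippocampus pair. The 4 pairs of 1 neurosphere and 1 hippocampus library lay between 0.105 and 0.148, and the hippocampus pair fell within that range. Hippocampus replicate 1 overlapped the neurosphere libraries (0.137 and 0.148) slightly more than it overlapped replicate 2, whereas replicate 2 overlapped them less (0.105 and 0.111). After the cut to equal length the values were 0.304, 0.130 and 0.0784 to 0.106, and the hippocampus pair then stood above every mixed pair. The cause of the low agreement was not tested.

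Of the 20807 gene bodies, 2703 were neurosphere-only (13% of all), 223 were hippocampus-only (1.07%) and 2828 were shared (13.6%). A further 10250 had no island in any library, and 4803 had another pattern. At equal covered length there were 792 neurosphere-only gene bodies (3.81%), 431 hippocampus-only (2.07%) and 1947 shared (9.36%). Neurosphere-only genes outnumbered hippocampus-only genes in both settings, but by a much smaller margin at equal length. Of the 2703 neurosphere-only genes, 702 held that class at equal length, and of the 223 hippocampus-only genes 185 did. Among the 431 at equal length, 169 had been shared as deposited, so their neurosphere islands were present but fell below the neurosphere density limit. They need not have been less dense than the hippocampus islands kept. Without hippocampus replicate 2 the hippocampus-only count was 443, without hippocampus replicate 1 it was 425, and without neurosphere replicate 1 it was 355. Without neurosphere replicate 2 the neurosphere-only count was 4116.

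**Figure D3:**
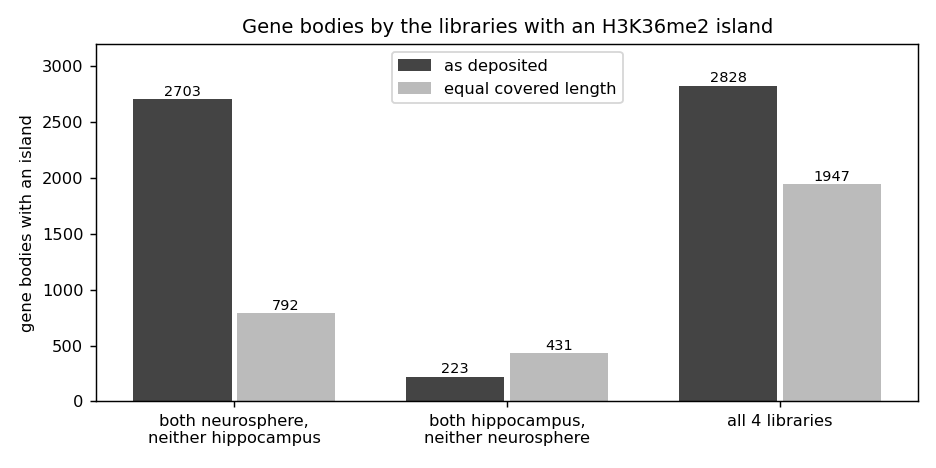
Number of autosomal protein-coding gene bodies (y axis) with an H3K36me2 island in both neurosphere and neither hippocampus library, in both hippocampus and neither neurosphere library, and in all 4 libraries, with islands as deposited (dark bars) and cut to equal covered length (light bars). The neurosphere-only count fell from 2703 to 792 and the hippocampus-only count rose from 223 to 431.

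Gene length went with the classes. The median gene body was 33.5 kb for neurosphere-only, 52.2 kb for hippocampus-only and 108 kb for shared genes, against 17.6 kb for all genes and 8.28 kb for genes without an island. In the quartile of the longest genes, over 45.6 kb, 43.2% were shared, against 0.442% in that of the shortest. A long gene body offers more room for an island, and its class does not say how much of it was marked. The lower of the shares of the gene body covered in the 2 defining libraries had a median of 14.6% in neurosphere-only genes and 6.17% in hippocampus-only genes. At least 50% was covered in both defining libraries in 444 neurosphere-only genes (16.4%) and in 6 hippocampus-only genes (2.69%). The promoter was CpG-rich in 57.8% of neurosphere-only, 30.5% of hippocampus-only and 52.7% of shared genes, against 44.9% of all genes.

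Among genes of at least 10 kb that held the class both as deposited and at equal covered length, the 10 neurosphere-only genes with the most complete coverage were Crb2, Flrt1, Lif, Tinagl1, Syt15, Col5a3, Mmp14, Gdpd5, Sox10 and Dkk3. Neurosphere libraries covered from 94.9% to 100% of each, and hippocampus libraries 0%. Crb2 (chr2:37776249-37799103), which encodes a Crumbs family protein of apical membranes, was covered over 100% in both neurosphere libraries. Lif (chr11:4257557-4272514), a cytokine known to act on neural stem cells, was likewise covered over 100% in both. Sox10 (chr15:79154908-79165240), the transcription factor of the oligodendrocyte and neural crest lineages, was covered over 100% and 95.2%. Dkk3 (chr7:112116017-112159057), a Dickkopf family secreted protein, was covered over 94.9% and 100%. The group also included the matrix metalloprotease gene Mmp14, the collagen gene Col5a3 and the synaptotagmin gene Syt15. Coverage of these genes at equal covered length was at least 93.5% in both neurosphere libraries except in Gdpd5, where it was 97.03% and 30.1%.

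The 10 hippocampus-only genes chosen in the same way were Cmtm2a, Chia1, Parvg, Pou2af1, Tnnt3, D130052B06Rik, Ribc2, Gm45711, Daam2 and Cdx1. Their coverage was partial, from 19.6% to 64.3% in the hippocampus libraries, and 0% in the neurosphere libraries. Cmtm2a (chr8:104281042-104293181) was covered over 47.6% and 52.7%, and it overlaps Gm45711, so these are not separate observations. Pou2af1 (chr9:51213708-51240080), a coactivator known from B cells, was covered over 57.2% and 34.1%. Tnnt3 (chr7:142498836-142516009), a troponin T of fast skeletal muscle, was covered over 49.9% and 24.5%. Daam2 (chr17:49456022-49564343), a formin linked to Wnt signalling, was covered over 19.8% in each. Several of these genes are known for work outside the brain: Tnnt3 in muscle, Pou2af1 in lymphocytes and Cdx1 in the gut.

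The leading shared genes were Fgr, Anxa11, Pla2g3, Cd82, Gm9780, Plac9a, Dcstamp, Dupd1, Tex33 and Plac9b. Fgr (chr4:132974095-133001910), a Src family kinase of myeloid cells, was covered over 100% and 97.1% in neurospheres and 60.1% and 51.4% in hippocampus. Anxa11 (chr14:25842156-25886804), an annexin, was covered over 90.5% and 93.6% against 77.5% and 49.7%. As deposited, the lower neurosphere value exceeded the higher hippocampus value in each of the 10. This did not hold at equal covered length for Cd82 (25.4% in neurosphere replicate 2 against 53.6% in hippocampus replicate 1), Dcstamp (26.7% in neurosphere replicate 1 against 48.0%) and Plac9b (17.8% against 45.1%). Plac9a, Plac9b and Gm9780 lie in a stretch of chromosome 14 with duplicated genes, and their reads may not be placed uniquely.

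**Figure D4:**
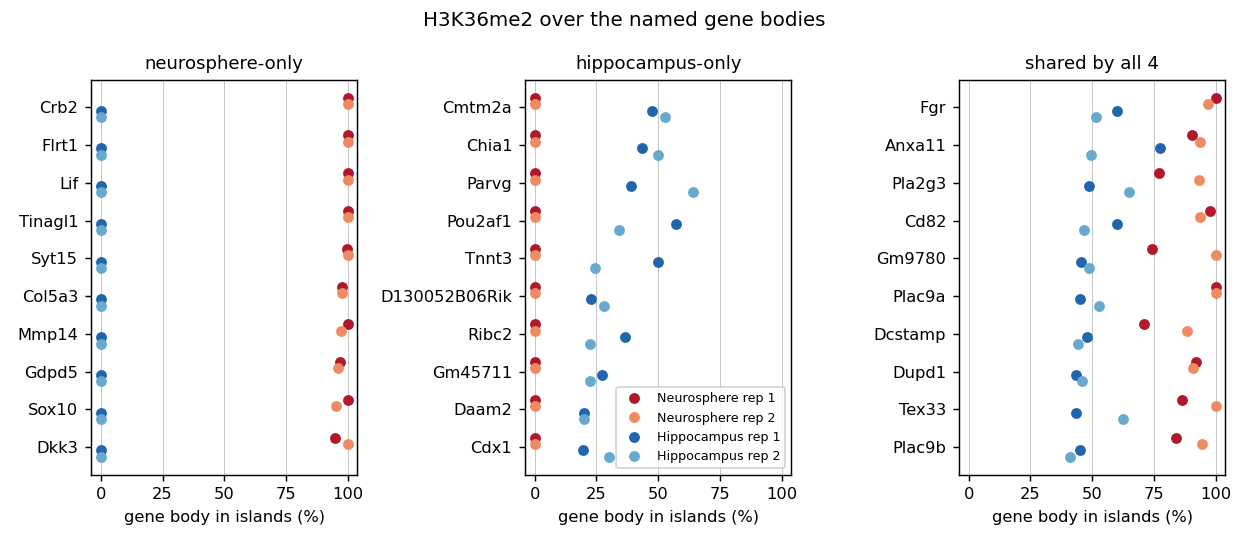
Percent of the gene body inside H3K36me2 islands (x axis) in each of the 4 Ctrl libraries (points) for the 10 leading genes of each class (y axis). Neurosphere-only genes were covered almost throughout in neurospheres, hippocampus-only genes over 19.6% to 64.3% in hippocampus, and shared genes more fully in neurospheres than in hippocampus with islands as deposited.

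Genes were then grouped by function. The counts of a list are to be read beside 13% neurosphere-only, 1.07% hippocampus-only and 13.6% shared among all genes. Class went with gene length, so for lists of long genes the share among all genes is not a matched comparison. Of the quartile of the longest genes, over 45.6 kb, 18.3% were neurosphere-only and 43.2% shared. Median length was 142.7 kb in the synapse list and 96.2 kb in the matrix list, against 17.6 kb for all genes. It was 45.98 kb for EGF and FGF genes and 42.9 kb for Wnt genes. No list was compared with genes of matched length. The median difference in covered share between the sources over all genes was 0 percentage points.

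Of 21 neural progenitor and radial glia genes, 2 were neurosphere-only, 4 were shared, 0 were hippocampus-only and 9 had no island. Pax6 (chr2:105668900-105697364), a transcription factor of radial glia, was covered over 58.0% and 39.0% in neurospheres, and Nr2e1 (chr10:42561963-42583632), the stem cell receptor TLX, over 52.6% and 53.7%. Hippocampus libraries had 0% in both genes, and at equal covered length Nr2e1 had no island in any library. Notch2, a shared gene, was covered over 82.0% and 64.0% in neurospheres against 3.51% and 7.16% in hippocampus. At equal length Notch2 had 12.4% and 4.53% against the same 3.51% and 7.16%, so the sources overlapped. The short genes Sox2, Nes, Hes1 and Hes5 had no island in any library. Of 20 cell cycle genes, 10 had no island, 2 were shared and 1 was neurosphere-only: Top2a, at 1.88% and 11.5%, which had no island at equal length. Of 12 genes of intermediate progenitors and newborn neurons, 2 were neurosphere-only. These were Igfbpl1 (chr4:45809468-45826923), at 89.7% and 54.6%, and Eomes (chr9:118478212-118486132), the intermediate progenitor factor TBR2, at 65.6% and 37.9%. In the equal-length setting Igfbpl1 was still neurosphere-only, and Eomes had 0% and 37.9%.

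Lists of neuronal genes differed in their counts. Of 18 genes of hippocampal pyramidal and granule neurons, 7 were neurosphere-only (38.9%), 4 were shared and 1 was hippocampus-only, and the median difference was 9.90 percentage points. Bcl11b (chr12:107910403-108003602), the neuronal factor CTIP2, was covered over 88.2% and 90.6% in neurospheres, and Mapt (chr11:104231390-104332090), encoding tau, over 30.6% and 29.2%. Prox1 (chr1:190118035-190170714), the granule neuron factor, was covered over 6.07% in each. All 3 had 0% in both hippocampus libraries. These genes are long, with a median of 96.95 kb, and at equal covered length 4 were neurosphere-only and the median difference was 0.94 points. Bcl11b was then still neurosphere-only, whereas Mapt and Prox1 had 0% in neurosphere replicate 2. The hippocampus-only gene was Rbfox3 (chr11:118489762-118911597), which encodes the neuronal marker NeuN and was covered over 7.92% and 4.03%. Of 28 synapse and neurotransmitter receptor genes, 12 were shared (42.9%), 2 were neurosphere-only and 0 were hippocampus-only. Camk2b (chr11:5969644-6066362), a subunit of a synaptic calcium-dependent kinase, was covered over 86.2% and 48.1% in neurospheres, and over 80.2% and 0% at equal covered length. Of 16 interneuron genes, 11 had no island, 1 was shared and 2 were neurosphere-only, among them Gad1, which makes GABA, at 11.9% and 9.66%.

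Of 10 astrocyte genes, 3 were neurosphere-only and 1 was shared, and the median difference of 36.02 percentage points was the largest of any list as deposited. It was 3.02 points at equal covered length. S100b (chr10:76253853-76261159), a calcium-binding protein of astrocytes, was covered over 89.1% and 75.9%, and Gja1 (chr10:56377330-56402513), the gap junction protein connexin 43, over 15.1% and 25.4%. S100b had no island in any library at equal covered length, and Gja1 had 4.76% and 0%. Of 9 oligodendrocyte lineage genes, 2 were neurosphere-only, 2 were shared and 1 was hippocampus-only. Beside Sox10, Nkx2-2 (chr2:147177546-147194243), a transcription factor of oligodendrocyte precursors, was covered over 79.3% and 91.0% in neurospheres, and over 71.9% and 0% at equal covered length, where the list had 1 neurosphere-only and 2 hippocampus-only genes. Cspg4 (chr9:56865033-56899870), the precursor proteoglycan NG2, was hippocampus-only at 17.8% and 4.59%.

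Markers of cells that a tissue sample holds and a progenitor culture should lack did not all fall on the hippocampal side. Of 10 endothelial and pericyte genes, 2 were hippocampus-only. Cdh5 (chr8:104101625-104144511), the endothelial VE-cadherin, was covered over 13.5% and 14.5%, and Flt1 (chr5:147561604-147726011), a VEGF receptor, over 5.35% and 5.11%, of which Flt1 had 0% and 5.11% at equal covered length. Cldn5, the tight junction claudin of brain endothelium, was neurosphere-only at 100% in both, and without an island at equal covered length. Of 10 microglial genes, 1 was neurosphere-only (P2ry12, at 12.4% and 24.5%, or 2.58% and 0% at equal covered length), 2 were shared and 5 had no island. Of 12 genes of meninges, choroid plexus and blood, 2 were neurosphere-only and 6 had no island. Islands of H3K36me2 do not measure expression, so these lists do not check the identity of either source.

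Signalling and matrix genes gave the following counts. Of 30 canonical Wnt genes, 7 were neurosphere-only (23.3%), 7 were shared and 1 was hippocampus-only. Wnt3 (chr11:103774150-103817957), a ligand, was covered over 97.4% and 62.5% in neurospheres. Sfrp2 (chr3:83766321-83774316), a secreted protein that can promote or inhibit Wnt signalling, was covered over 63.5% and 85.0%. The cut to equal length left Sfrp2 with 12.5% and 0%, and Wnt3 neurosphere-only. Sfrp1 (chr8:23411502-23449632), of the same family as Sfrp2, was hippocampus-only at 6.82% and 16.8%, so these 2 members lay on opposite sides. Of 26 genes of EGF and FGF signalling, the factors added to the culture, 6 were neurosphere-only (23.1%) and 0 were hippocampus-only. Fgfr1 (chr8:25513654-25575718), an FGF receptor, was covered over 48.9% and 55.3%, whereas Egfr, the EGF receptor, was shared at 8.44% and 14.2% against 12.3% and 12.4% (0.482% in each neurosphere library at equal covered length). Of 20 matrix and adhesion genes, 11 were shared (55.0%), 2 were neurosphere-only and 1 was hippocampus-only: Nid1, the basement membrane protein nidogen, at 3.21% and 8.83%. The neurosphere-only counts at equal covered length were 3 for Wnt, 3 for EGF and FGF and 1 for matrix genes.

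Of 19 genes for H3K36 methyltransferases, demethylases and readers, 4 were neurosphere-only, 1 was shared, 0 were hippocampus-only and 7 had no island. With equal covered length 2 were neurosphere-only and 10 had no island. Kdm2b (chr5:122870665-122989823), the gene whose CxxC domain the cKO mice of this series lack, was covered over 40.6% and 28.2% in neurospheres and 2.35% and 0% in hippocampus. Dnmt3a (chr12:3806007-3914443), which reads H3K36me2, was shared, at 56.6% and 41.5% against 3.5% and 1.29%. After the cut to equal length Dnmt3a was no longer shared, with 0% in neurosphere replicate 2. No island lay in any of the 39 Hox genes, known Polycomb targets, in any library, and 1108 of 1128 olfactory receptor genes had none. These compare with 10250 of 20807 for all genes.

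H3K27me3, which the classes did not use, differed most at the hippocampus-only genes. In the Ctrl H3K27me3 libraries, 68.6% and 70.4% of hippocampus-only promoters held an island in neurosphere replicates 1 and 2, and 27.4% and 25.6% in hippocampus. Over all 20807 genes the shares were 27.3% and 28.1% against 17.3% and 12.9%. Neurosphere-only promoters had 18.7% and 19.4% against 14.1% and 10.7%, and shared promoters 26.1% and 26.9% against 20.7% and 16.1%. Genes that carried H3K36me2 in the tissue alone were thus often H3K27me3-marked in neurospheres. The mean difference between sources was 43.0 percentage points for hippocampus-only genes, 6.68 for neurosphere-only genes and 12.6 for all genes. In each case the neurosphere libraries lay above the hippocampus libraries, and the exact permutation test gave p = 0.333, the smallest possible. At equal covered length the difference for hippocampus-only genes was 33.1 points. Over gene bodies, neurosphere H3K27me3 covered on average 40.8% and 43.0% of hippocampus-only genes against 14.6% and 15.0% of all genes and 5.90% and 6.25% of neurosphere-only genes. Among genes of at least 10 kb the promoter shares of the hippocampus-only class in neurospheres were 69.8% and 71.3%, against 27.7% and 27.9% of all such genes. The H3K27me3 islands themselves covered 245 and 239 Mb in neurospheres and 123 and 54.6 Mb in hippocampus, and the part of that difference in these values was not tested.

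**Figure D5:**
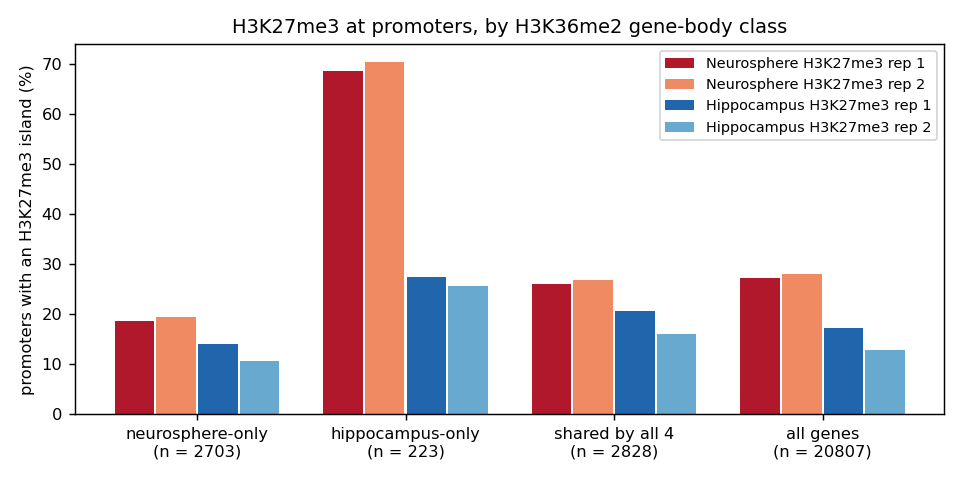
Percent of promoters (2 kb on each side of the start site) with an H3K27me3 island (y axis) in each of the 4 Ctrl H3K27me3 libraries (bars), for the 3 H3K36me2 gene-body classes and all autosomal protein-coding genes (x axis). In neurospheres the hippocampus-only genes reach 68.6% and 70.4%, against 27.3% and 28.1% of all genes.

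Over the gene body, some single genes had opposite patterns of the marks. H3K27me3 covered 99.3% and 97.2% of Rbfox3 in neurospheres and 1.61% and 2.04% in hippocampus, the reverse of its H3K36me2. Sfrp1 had 65.3% and 72.2% against 0.784% and 11.01%, and Nid1 65.9% and 55.5% against 7.29% and 2.21%. The promoters of Sfrp1 and Nid1 nevertheless held an H3K27me3 island in all 4 libraries, those of the hippocampus included. On the neurosphere-only side, Sox10 had H3K27me3 over 0% in both neurosphere libraries against 83.6% and 66.2% in hippocampus, and Nkx2-2 0% against 100% in both. Of the 10 leading hippocampus-only genes, 9 had a promoter island of H3K27me3 in both neurosphere libraries, and Chia1 was the exception. The share was 63.7% in the whole class and 22.9% among all genes. Of the 10 leading neurosphere-only genes, 4 had a promoter island of H3K27me3 in both hippocampus libraries (Tinagl1, Syt15, Col5a3 and Sox10). The share was 9.17% in the whole neurosphere-only class and 10.996% among all genes, so the class as a whole lay below all genes. The bodies of Crb2, Flrt1, Mmp14 and Gdpd5 had no H3K27me3 in any library. Other genes did not have opposite patterns. Dkk3 had H3K27me3 promoter islands in both neurosphere libraries and in neither hippocampus library. Wnt3 carried both marks in neurospheres, with H3K27me3 over 80.5% and 95.5%, and Cspg4 had H3K27me3 in none of the 4 libraries.

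Between genes the picture was similar. Merging the islands of all 4 libraries gave 74275 intergenic regions, of which 15992 were neurosphere-only (21.5%), 2315 hippocampus-only (3.12%) and 5649 shared (7.61%). At equal covered length the neurosphere-only and hippocampus-only counts came close, at 4854 and 4492, and 1543 regions were shared. Without hippocampus replicate 1 or 2 the hippocampus-only count was 8939 and 10394, and the shared count 8800 and 10492. Without neurosphere replicate 1 or 2 the neurosphere-only count was 29184 and 24450. Neurosphere-only regions had a median width of 2.6 kb, the same as all intergenic regions, and were relatively CpG-dense, with 10 CpG per kb. Hippocampus-only regions had a median of 4.2 kb and 6.67 CpG per kb, and shared regions of 9.4 kb and 9.26 CpG per kb, against 8.57 CpG per kb for all regions. Hippocampus-only regions lay further from genes, at a median of 119.1 kb, against 66.8 kb for neurosphere-only and 78.4 kb for all regions.

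The leading neurosphere-only region was 53.6 kb long, between Lemd2 and Grm4 (chr17:27209401-27263000), with 50.2 and 48.4 kb in neurosphere islands and 3683 and 2435 counts. The second, of 41.2 kb (chr4:124447401-124488600), held 40.0 and 40.6 kb. The leading hippocampus-only region was 18.4 kb long, between Rpl34 and Lef1 (chr3:130843801-130862200), with 15.0 and 13.0 kb in hippocampus islands and 436 and 299 counts. The leading hippocampus-only region was thus shorter and carried fewer counts than the leading neurosphere-only region, although the median hippocampus-only region was longer than the median neurosphere-only region (4.2 against 2.6 kb). The leading shared region spanned 184.4 kb between Rps24 and Zmiz1 (chr14:24948401-25132800), with 163.4 and 170.4 kb in neurosphere islands and 108.4 and 87.4 kb in hippocampus islands. A second shared domain, of 129 kb between Bod1 and Cpeb4 (chr11:31708201-31837200), held 116 and 125.2 kb against 91.6 and 66.8 kb.

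Intergenic regions repeated the relation to H3K27me3. An H3K27me3 island lay in 33.0% and 33.3% of hippocampus-only intergenic regions in neurospheres and in 2.89% and 1.21% in hippocampus, against 14.1% and 14.9%, and 6.52% and 2.61%, of all intergenic regions. Base by base, 11.2 Mb were covered by H3K36me2 in both hippocampus libraries and neither neurosphere library. Of these bases 19.2% and 17.7% were inside neurosphere H3K27me3 islands, against 9.96% and 9.72% of all autosomal bases. Inside hippocampus H3K27me3 islands lay 1.08% and 0.463% of the same bases, against 5.01% and 2.22% of the autosomes. Within the hippocampus, these 11.2 Mb thus seldom carried H3K27me3. The reverse side differed: 194.7 Mb were covered by H3K36me2 in both neurosphere libraries and neither hippocampus library. Of those bases 5.70% and 2.42% were inside hippocampus H3K27me3 islands, close to the autosomal shares.

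Regions called in all 4 libraries allow a comparison of counts. There were 10083 such regions, and 751 were higher in neurospheres (7.45%) and 810 lower (8.03%) by the quasi-likelihood test of edgeR, with p-values adjusted after Benjamini and Hochberg and called under 0.05. Regions that were higher lay mostly over genes: 572 of 751 (76.2%) touched a gene body, against 198 of 810 lower regions (24.4%) and 44.0% of all tested regions. Higher regions were also wider, with a median of 29.2 kb against 5.2 kb for lower and 10.8 kb for all regions, and a wider region touches a gene more easily. In the region over Ece1 (chr4:137850001-137965600), the gene of endothelin-converting enzyme, counts were 7645 and 4805 in neurospheres and 98 and 81 in hippocampus. The log2 fold change was 4.48 ± 0.48 (SE, n = 2 per source, edgeR adjusted p = 0.0196). The next were regions over Macrod1 and Flrt1 (4.19), Rnf165 (3.87), Lrrn2 and Mdm4 (3.79) and Tiam1 (3.78). The 5 leading lower regions were all intergenic. The one with the largest change lay 10.2 kb from Celf2 (chr2:7519801-7528600), with 29 and 28 counts in neurospheres against 247 and 50 in hippocampus (log2 fold change -3.93 ± 0.68, edgeR adjusted p = 0.0207). The next (chr10:96490401-96506400), 110.6 kb from Btg1, had 56 and 70 against 399 and 221 counts (-3.92).

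These calls followed the length called as islands. Over Ece1, islands spanned 113.4 and 92.6 kb in neurospheres and 4 and 3.2 kb in hippocampus. In the region near Celf2 they spanned 0.2 kb in each neurosphere library, against 8.8 and 1.4 kb in hippocampus. Higher regions had medians of 25.6 and 26.8 kb called in neurospheres against 3.8 and 3.2 kb in hippocampus, and lower regions 1.4 and 1.8 kb against 3.8 and 3.2 kb. When called length entered as an offset, so that counts per kb were tested, 0 regions were higher and 6567 lower by edgeR, with the median region at -0.79 on the log2 scale (1 higher and 7345 lower at an unadjusted p under 0.05). With that median set to 0, 0 were higher and 2 lower, and none of the 1561 calls on counts was made again. In this setting the leading lower regions had log2 values of 1.32 (near Celf2), -0.04 (near Btg1), -0.39, -0.30 and 1.01. The first and last thus had more counts per kb in neurospheres, and none was called. The calls on counts thus followed the extent of the islands, and none was made again on density. The test scaled counts to each library's total in the tested regions. Unscaled, islands held more counts per kb in neurospheres (55.5 and 45.9 against 27.9 and 27.1). Density is known only inside islands, which had to pass the calling threshold, so the test cannot show that density was equal.

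The cKO libraries gave a second pair per source that the classes had not used, though of another genotype (Kdm2bEmx1-delta-CxxC), where Emx1-driven recombination removes the CxxC domain of KDM2B in cells of the Emx1 lineage. Among them, 2151 gene bodies were neurosphere-only (10.3%), 102 hippocampus-only (0.49%) and 2559 shared (12.3%). Of the Ctrl shared genes 2008 were shared again (71.004%), of the neurosphere-only genes 1089 had that class again (40.3%), and of the hippocampus-only genes 43 did (19.3%). The cKO neurosphere libraries differed widely from each other. Of the hippocampus-only genes 63.2% had an island in cKO neurosphere replicate 1 but 4.48% in replicate 2, against 66.3% and 30.2% of all genes. Of the 10 leading hippocampus-only genes, 2 (Chia1 and Pou2af1) held that class in the cKO libraries, and cKO neurosphere replicate 1 covered 82.5% of Tnnt3, 82.4% of Ribc2, 77.97% of Parvg and 65.4% of Cdx1. Of the 10 leading neurosphere-only genes, 2 (Col5a3 and Sox10) held theirs, and Crb2, Flrt1, Lif, Tinagl1 and Mmp14 had 0% in cKO neurosphere replicate 2.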

How the data were processed

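H3K36me2 ChIP-seq of 2 Ctrl neurosphere and 2 Ctrl hippocampus libraries was analysed. The authors trimmed reads with cutadapt, aligned them to mm10 with Bowtie2 2.4.5, removed duplicates and called islands per library against input with SICER (window 200 bp, gap 600 bp, FDR 0.01; version not given in the sources used here). The deposited files give each island's position and its read count, unnormalised; total reads are not listed. Autosomal islands were used, and at most 0.21% of counts lay elsewhere. Gene models were GENCODE protein-coding genes of mm10. Leading genes were the 10 of each class, of at least 10 kb and in that class both as deposited and at equal covered length, with the highest coverage in the least covered defining library; leading intergenic regions were the first 5 by covered kb under the same conditions, and leading edgeR regions the 5 largest fold changes each way. From the gene lists, some of the genes in a source-only class and a few others were named as examples, chosen after their values were seen. Regions with an island in all 4 libraries were tested on counts with edgeR 4.0.16 (TMM, quasi-likelihood F test, Benjamini-Hochberg FDR 0.05; limma 3.58.1, R 4.3.3), with DESeq2 1.42.0 as an alternative; standard errors were approximated from F. Values per library were compared with an exact, two-sided permutation test. The interval code and the edgeR test were tried on simulated data. The simulated counts varied less between replicates than the real ones, so this does not show how the edgeR test performs here. The members and gene lists were chosen with earlier results of these data known. Of the listed genes, 5 were not among the autosomal genes matched. Intervals were not given, since counts inside islands cover part of each library only.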

Additional observations from a re-analysis of the deposited data

How the results depend on the processing

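Over the alternatives run, the log2 ratio of covered length ranged from 1.32 to 1.81. The difference in gene-body share ranged from 16.0 to 19.2 percentage points, and neither changed sign. Counts of classes and of calls have no sign to change. The difference in the share of the first of 4 parts of the gene body ranged from 0.28 (without neurosphere replicate 2) to 1.04 percentage points (without neurosphere replicate 1). Counts of classes depended on the island set. At equal covered length there were 792 neurosphere-only and 431 hippocampus-only gene bodies, and 4854 neurosphere-only, 4492 hippocampus-only and 1543 shared intergenic regions. Requiring 10% of the gene body to be covered left 109 hippocampus-only and 865 shared genes, and islands of at least 2 kb left 7552 neurosphere-only and 3606 shared intergenic regions. With each library left out in turn, neurosphere-only gene bodies ranged from 3430 to 4116 (the highest without neurosphere replicate 2) and hippocampus-only ones from 276 to 443 (355 without neurosphere replicate 1, 425 and 443 without hippocampus replicates 1 and 2). Intergenic regions ranged from 19143 to 29184 for neurosphere-only (29184 and 24450 without neurosphere replicates 1 and 2), from 2742 to 10394 for hippocampus-only and from 6076 to 10492 for shared (8939 and 8800, then 10394 and 10492, without hippocampus replicates 1 and 2). Fewer libraries make each class easier to enter.

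Beside 1561 calls on counts in the main design, edgeR with the replicate number as a replicate block called 2791 regions (1291 higher, 1500 lower in neurospheres). Same-numbered libraries did not deviate together (r = 0.00858 over 10083 regions). This cannot show whether the numbers pair samples by animal or day, which the labels do not say. DESeq2's Wald test gave 3917 (1962, 1955), a mean of at least 100 counts 391 (248, 143), and equal covered length 596 (209, 387) of 2608 regions. Counts per kb gave 6567 (0, 6567), and with the median region at 0, an alternative chosen after seeing the data, 2 (0, 2). Leaving out each library gave 814 to 2284 calls, 217 to 1486 higher and 475 to 1151 lower: 814 in all and 217 higher without neurosphere replicate 1, 1486 higher without hippocampus replicate 1, and 1149 higher and 475 lower without hippocampus replicate 2. The balance of the calls also changed sides. More regions were lower than higher in the main design (810 against 751). More were higher without hippocampus replicate 1 (1486 against 798) and without hippocampus replicate 2 (1149 against 475). The cause of these shifts was not tested.

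The H3K27me3 alternatives were also chosen after seeing the data. The promoter difference of hippocampus-only genes was 33.1 percentage points at equal covered length, 41.3 with islands of at least 2 kb and 37.5 to 39.4 with each library left out. That of neurosphere-only genes was 3.98, 7.42 and 7.15 to 8.70. Beyond these, 2 libraries per source and the absence of counts outside islands limit what could be detected.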

Other observations

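H2AK119ub1, the histone mark placed by Polycomb repressive complex 1, was also available in the Ctrl libraries, but its replicates differed widely, covering 318.5 and 116.2 Mb in neurospheres and 44.9 and 157.2 Mb in hippocampus. Of hippocampus-only promoters, 53.8% and 26.9% held an H2AK119ub1 island in neurospheres and 14.8% and 44.8% in hippocampus, against 37.5%, 15.1%, 6.33% and 18.1% of all promoters. Shared genes had 48.1%, 25.2%, 11.9% and 34.3%, and neurosphere-only genes 33.1%, 14.7%, 5.51% and 15.1%. In all 4 libraries the hippocampus-only and shared classes thus lay above all genes. The bases covered by H3K36me2 in both neurosphere libraries alone were inside H2AK119ub1 islands over 36.1% and 9.01% in neurospheres and 4.57% and 17.8% in hippocampus, against 12.9%, 4.72%, 1.82% and 6.38% of the autosomes.

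The parts of the genome covered by H3K36me2 in all 4 libraries, 14.6 Mb, lay in hippocampal H3K27me3 islands over 0.912% and 0.317%, against 5.01% and 2.22% of the autosomes. In neurospheres the same bases had 8.96% and 9.94%, against 9.96% and 9.72%.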
